A study of Homo sapiens with 6 samples.

Results

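The histone genes measured here comprised 56 of the 19775 genes on the array. They were taken as genes with a replication-dependent histone symbol or 1 of 9 named variant histone genes, each with at least 1 probe set annotated to that gene alone. Cells of MOLM-14, a line established from human acute myeloid leukaemia that carries an MLL-AF9 rearrangement, were kept for 24 h either in 10 nM cortistatin A (CA), an inhibitor of the Mediator kinases CDK8 and CDK19, or in its DMSO vehicle. There were 3 CA and 3 DMSO samples, plated as triplicate wells of this 1 line and hybridised to 1 Affymetrix U133 Plus array each. The comparison asks which histone transcripts differed when these kinases were inhibited. All values below are on the log2 scale, as the authors computed them with RMA, a method that corrects background, quantile-normalizes the arrays and summarises the probes.

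Histones package DNA into nucleosomes, with H2A, H2B, H3 and H4 in the core particle and H1 on the linker DNA. Replication-dependent histone genes are clustered, lack introns and are transcribed mainly in S phase, and most of their mRNAs end in a stem-loop in place of a poly(A) tail. Variant histones are mostly made from polyadenylated mRNAs throughout the cell cycle and replace core or linker histones at particular sites. Labelling by 3' in vitro transcription starts at poly(A) tails, so that for replication-dependent genes the arrays report mainly the polyadenylated forms. Many of these genes are near-identical copies, and probes may be shared between them beyond what the annotation lists.

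The 56 genes held 41 replication-dependent genes, of which 5 encode H1, 8 H2A, 13 H2B, 7 H3 and 8 H4. They also held 7 variant genes, 5 testis or oocyte genes and 3 pseudogenes, and 42 of the 56 lie on chromosome 6. The variant H3-3B had no probe set annotated to it alone. No filter on level was applied. Both group means lay under the lower quartile of all probe sets (4.12) in 11 of the 56 genes, 9 of them replication-dependent, and 20 of the 41 replication-dependent genes had a mean log2 of at least 5. Calls rest on limma over all 19775 genes, with an adjusted p under 0.05.

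The arrays had nearly the same distribution (medians of 5.59 to 5.62), and pairs within a group correlated at 0.998 over probe sets. As a gauge of RNA integrity, the 3' minus the 5' signal of GAPDH came to 0.48 ± 0.05 in CA and 0.38 ± 0.02 in DMSO (SD, n = 3). The exact 2-sided permutation p of 0.1 is the least that 3 against 3 allows. The same difference was 2.38 ± 0.07 in CA and 2.27 ± 0.13 in DMSO for ACTB (exact permutation p = 0.3). The part of RNA integrity in the histone values was not tested. Of 8 myeloid markers measured, 3 were called. ITGAM was at 7.20 in CA and 7.65 in DMSO (-0.45, limma adjusted p = 0.00377) and CSF1R at 6.31 in CA and 6.71 in DMSO (-0.39, adjusted p = 0.0130), and both fell. MEIS1 rose, at 9.95 in CA and 9.70 in DMSO (0.25, adjusted p = 0.0179). LYZ (13.33 in CA, 13.38 in DMSO), FLT3, MPO, SPI1 and FCGR1A were uncalled, and FCGR1A lay below the lower quartile in both groups (3.87 in CA, 4.05 in DMSO). The part of the myeloid changes in the histone values was not tested. None of the 5 T cell, 3 B cell, 3 erythroid, 6 epithelial or stromal and 6 testis germ cell markers measured was called, and their means were 3.12 to 7.37, below the upper quartile of the arrays (7.67 to 7.69). In bulk RNA, a change in the number of cells that express a gene and a change in RNA per cell cannot be told apart.

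After CA, 4 replication-dependent genes rose, the H2A gene H2AC17 (formerly HIST1H2AM) and the H2B genes H2BC5 (HIST1H2BD), H2BC6 (HIST1H2BE) and H2BC12 (HIST1H2BK). One variant gene, H1-10 (H1FX), a linker histone, fell. In all, 5 of the 56 genes were called (8.93%), where 11.1% of all genes were. The 4 that rose were 7.14% of the histone genes, against 6.64% of all genes, and the single gene that fell was 1.79%, against 4.49%. The shares called and called higher are near those of all genes. The median change was 0.01 over the 56 histone genes and -0.00 over all genes.

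The promoters of the 4 genes that rose are shown because these genes moved in the same direction, and that of H1-10 because it moved in the other. Each is the stretch of 250 bases before the annotated start in RefSeq (build GRCh38.p14), 5′ to 3′ on the strand of the gene. Capitals mark the TATA box motif TATAAA, the CCAAT box motif and the octamer ATTTGCAT, a binding motif of POU2F1, on either strand.
H2AC17, chr6:27893186-27893435, minus strand: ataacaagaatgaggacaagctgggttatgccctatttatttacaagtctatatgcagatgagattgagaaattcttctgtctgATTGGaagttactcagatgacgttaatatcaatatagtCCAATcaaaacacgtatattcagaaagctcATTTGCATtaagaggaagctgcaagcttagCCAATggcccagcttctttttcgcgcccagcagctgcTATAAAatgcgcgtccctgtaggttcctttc
H2BC5, chr6:26157871-26158120, plus strand: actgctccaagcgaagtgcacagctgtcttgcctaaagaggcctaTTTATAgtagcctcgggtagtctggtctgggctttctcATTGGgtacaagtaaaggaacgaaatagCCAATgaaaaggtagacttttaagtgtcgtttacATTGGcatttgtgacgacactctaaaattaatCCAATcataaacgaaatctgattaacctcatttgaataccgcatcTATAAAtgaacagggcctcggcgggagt
H2BC6, chr6:26183511-26183760, plus strand: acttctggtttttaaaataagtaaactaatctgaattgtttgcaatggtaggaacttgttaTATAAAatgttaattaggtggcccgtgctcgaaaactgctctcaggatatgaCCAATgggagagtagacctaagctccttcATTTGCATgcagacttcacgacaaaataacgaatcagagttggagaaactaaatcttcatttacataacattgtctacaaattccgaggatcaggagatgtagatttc
H2BC12, chr6:27146856-27147105, minus strand: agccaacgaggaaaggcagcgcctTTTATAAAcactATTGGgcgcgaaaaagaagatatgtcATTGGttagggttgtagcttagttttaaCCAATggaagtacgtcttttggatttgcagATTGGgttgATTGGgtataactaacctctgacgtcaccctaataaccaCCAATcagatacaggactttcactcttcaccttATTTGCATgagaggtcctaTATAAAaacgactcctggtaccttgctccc
H1-10, chr3:129316287-129316536, minus strand: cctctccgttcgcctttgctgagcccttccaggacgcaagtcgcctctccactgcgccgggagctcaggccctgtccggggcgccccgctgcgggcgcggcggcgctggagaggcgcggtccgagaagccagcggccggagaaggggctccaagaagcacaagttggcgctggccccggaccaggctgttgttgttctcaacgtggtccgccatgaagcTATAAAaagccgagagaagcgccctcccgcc

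All 4 promoters of the genes that rose held TATAAA and CCAAT, and 3 of the 4 held the octamer, the exception being H2BC5. In H2BC12, 2 of the TATAAA matches overlap on opposite strands. TATAAA began 31 bases before the start in H2AC17 and H1-10, 30 in H2BC12 and 28 in H2BC5, while in H2BC6 it began 189 bases before the annotated start. H2BC5 and H2BC12 have 2 annotated starts each, of which 1 was used for the sequences and positions shown. In the counts of genes, a gene held a motif if the promoter of any of its annotated starts did. The H1-10 promoter held TATAAA and neither of the other motifs. Among the 34 uncalled replication-dependent genes with a promoter in the table, 22 held TATAAA, 29 CCAAT and 12 the octamer. Over the promoters of 27305 genes the shares were 13.0% for TATAAA, 37.0% for CCAAT and 2.0% for the octamer. By class the octamer was in 6 of 8 H2A and 9 of 12 H2B promoters and in none of the 5 H1, 6 H3 and 7 H4 promoters searched. H2A and H2B genes often lie head to head with a common promoter region, so these matches are not independent, and the motifs were shared by genes that were called and genes that were not.

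H2AC17 changed the most of the 56. It was at 5.75, 5.82 and 5.83 in the CA samples, against 5.22, 5.05 and 5.04 in the DMSO samples. The lowest CA value exceeded the highest DMSO value by more than the range within either group. The log2 change was 0.70 (SE 0.06, 95% confidence interval 0.56 to 0.84, 1.62-fold, limma adjusted p = 9.48e-04). H2AC17 was called with any 1 of the 6 arrays left out (adjusted p of 0.00129 to 0.00785). Its protein is a core H2A, and the gene rests on 1 probe set. A pair of probe sets annotated to H2AC17 and 5 other H2A genes together did not pass the test, with log2 changes of 0.30 (SE 0.13) and -0.01 (SE 0.07).

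H2BC5 was at 7.41, 7.37 and 7.44 in CA and at 7.13, 7.11 and 6.95 in DMSO. The groups did not overlap, and the log2 change was 0.34 (SE 0.06, 1.27-fold, limma adjusted p = 0.0139). Its second probe set was at 6.74 ± 0.16 in CA and 6.57 ± 0.09 in DMSO (SD, n = 3) and was not called (0.17, adjusted p = 0.391 per probe set). H2BC6 was at 7.68, 7.67 and 7.66 in CA, against 7.34, 7.48 and 7.37 in DMSO. The CA samples were nearly alike, and all lay above the DMSO samples (log2 change 0.28, SE 0.05, 1.21-fold, limma adjusted p = 0.0143). Both genes encode core H2B proteins and were read by probe sets ending in _x_at, which can match several transcripts, so that their signals may not be separate. H2BC12 was at 9.44, 9.46 and 9.52 in CA and at 9.22, 9.28 and 9.25 in DMSO. Again every CA sample was the higher (log2 change 0.22, SE 0.04, 1.17-fold, limma adjusted p = 0.0174).

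H1-10, which encodes the linker histone H1X, was at 7.12, 7.23 and 7.12 in CA, against 7.46, 7.39 and 7.43 in DMSO. All CA samples were below all DMSO samples, and the log2 change was -0.27 (SE 0.05, 1.21-fold lower, limma adjusted p = 0.0147). With single arrays left out, the calls of H2BC5, H2BC6, H2BC12 and H1-10 were not all kept, while the changes kept their sign. They ran from 0.29 to 0.37 in H2BC5 and from 0.25 to 0.32 in H2BC6. In H2BC12 they ran from 0.20 to 0.24 and in H1-10 from -0.31 to -0.25. H2BC5 was uncalled without CA replicate 1 or 3 (limma adjusted p of 0.0509 and 0.0563). H2BC6 was uncalled without CA replicate 1, 2 or 3 or DMSO replicate 3 (0.0522 to 0.0610), and H2BC12 without CA replicate 2 or 3 or DMSO replicate 1 or 3 (0.0594 to 0.0680). H1-10 was uncalled without CA replicate 1 or 3 or DMSO replicate 1 or 3 (0.0544 to 0.0586).

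**Figure D1:**
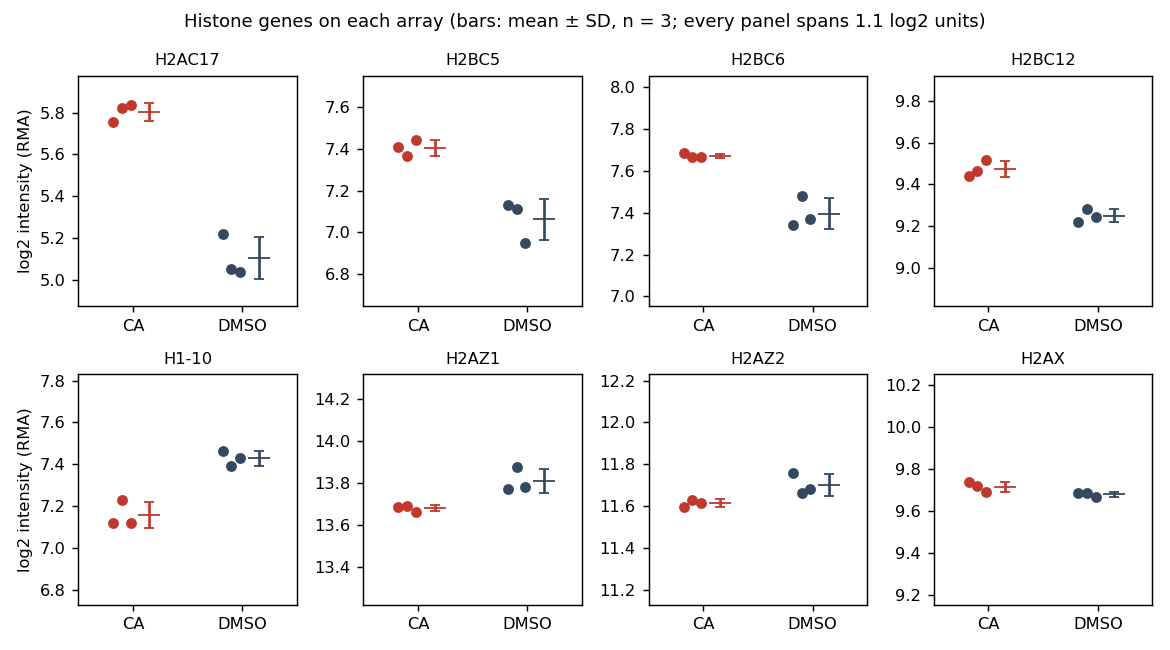
Log2 intensity (RMA) of the 5 called histone genes and of H2AZ1, H2AZ2 and H2AX on each array, with CA on the left and DMSO on the right of each panel. Points are arrays, and bars give the mean ± SD (n = 3). H2AC17 shows the widest separation, and the groups do not overlap in any panel.

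The other 37 replication-dependent genes did not pass the test. The H2B class had 10 of its 13 genes on the side of CA, with 3 called higher (23.1%, against 6.64% of all genes) and a median of 0.10. The class was mostly of low intensity, with a median level of 4.52 (lower quartile of all probe sets 4.12) and 4 genes at a mean log2 of at least 6. Its groups did not overlap in 6 genes, all higher in CA, and 16.6% of all genes did not overlap in that direction. Among the uncalled were H2BC12L, an H2B gene on chromosome 21 (7.97, 7.96 and 8.06 in CA, against 7.77, 7.84 and 7.94 in DMSO, 0.15, adjusted p = 0.151), H2BC15 (0.09, adjusted p = 0.163) and H2BC3 (0.10, adjusted p = 0.189). H2BC9 was at 5.89, 5.99 and 5.97 in CA and at 5.54, 6.11 and 5.68 in DMSO, where replicate 2 stood above every CA sample (0.17, adjusted p = 0.522). Without DMSO replicate 2, H2BC9 was called (0.34, limma adjusted p = 0.0380). The other 5 fits with 1 array left out did not call it. Over the 6 fits its change ran from 0.05 to 0.34 (limma adjusted p of 0.0380 to 0.858). H2BC4 was at -0.14 (95% confidence interval -0.45 to 0.17). The H2B genes share much of their coding sequence, so their counts are not those of 13 independent readings.

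The H2A class had a median of -0.01 and 5 of its 8 genes on the side of DMSO. H2AC6 was at 6.19, 6.09 and 6.15 in CA, against 6.44, 6.27 and 6.29 in DMSO, with no overlap (-0.20, SE 0.06, limma adjusted p = 0.0866). H2AC8 was at 4.32, 4.84 and 4.76 in CA and at 4.46, 4.43 and 4.35 in DMSO, so that CA replicate 1 lay among the DMSO samples (0.23, adjusted p = 0.360). Without CA replicate 1, H2AC8 was called (0.39, limma adjusted p = 0.0205). It was uncalled in the other 5 such fits, and the 6 gave changes of 0.13 to 0.39 (limma adjusted p of 0.0205 to 0.651). The H3 class ran from -0.10 to 0.14 with a median of 0.01, and its groups overlapped in all 7 genes. In the H4 class, 4 of 8 genes were on each side (median 0.04). H4C13 was at 4.60, 4.79 and 4.57 in CA, against 4.32, 4.40 and 4.49 in DMSO, without overlap (0.25, adjusted p = 0.0875). H4C5 was at 5.27, 5.43 and 5.61 in CA and at 5.40, 4.89 and 4.86 in DMSO, where replicate 1 stood apart (0.38, SE 0.16, limma adjusted p = 0.199). Without DMSO replicate 1, H4C5 was called (0.56, limma adjusted p = 0.0359). It was uncalled in the other 5 such fits, and the 6 gave changes of 0.29 to 0.56 (limma adjusted p of 0.0359 to 0.408).

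The linker histone genes of the replication-dependent class, H1-1 to H1-5, ran from -0.17 to 0.07 with a median of -0.09, and the groups overlapped in all 5. H1-2 was at 6.71, 6.54 and 6.89 in CA and at 7.18, 6.58 and 6.88 in DMSO, the spread within DMSO being larger than the difference between groups (-0.17, 95% confidence interval -0.55 to 0.22). H4C11, an H4 gene, was at -0.03 (-0.15 to 0.09). None of the testis or oocyte genes was called, the farthest being the testis H3 gene H3-4 at -0.15 (limma adjusted p = 0.121), and the 3 pseudogenes were at 0.04 to 0.09. Of the 51 uncalled histone genes, 27 had a 95% confidence interval that lay inside a 1.2-fold change in either direction. The other 24 leave room for a change of at least that size. The groups did not overlap in 15 of the 56 genes (26.8%), against 31.8% of all genes.

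**Figure D2:**
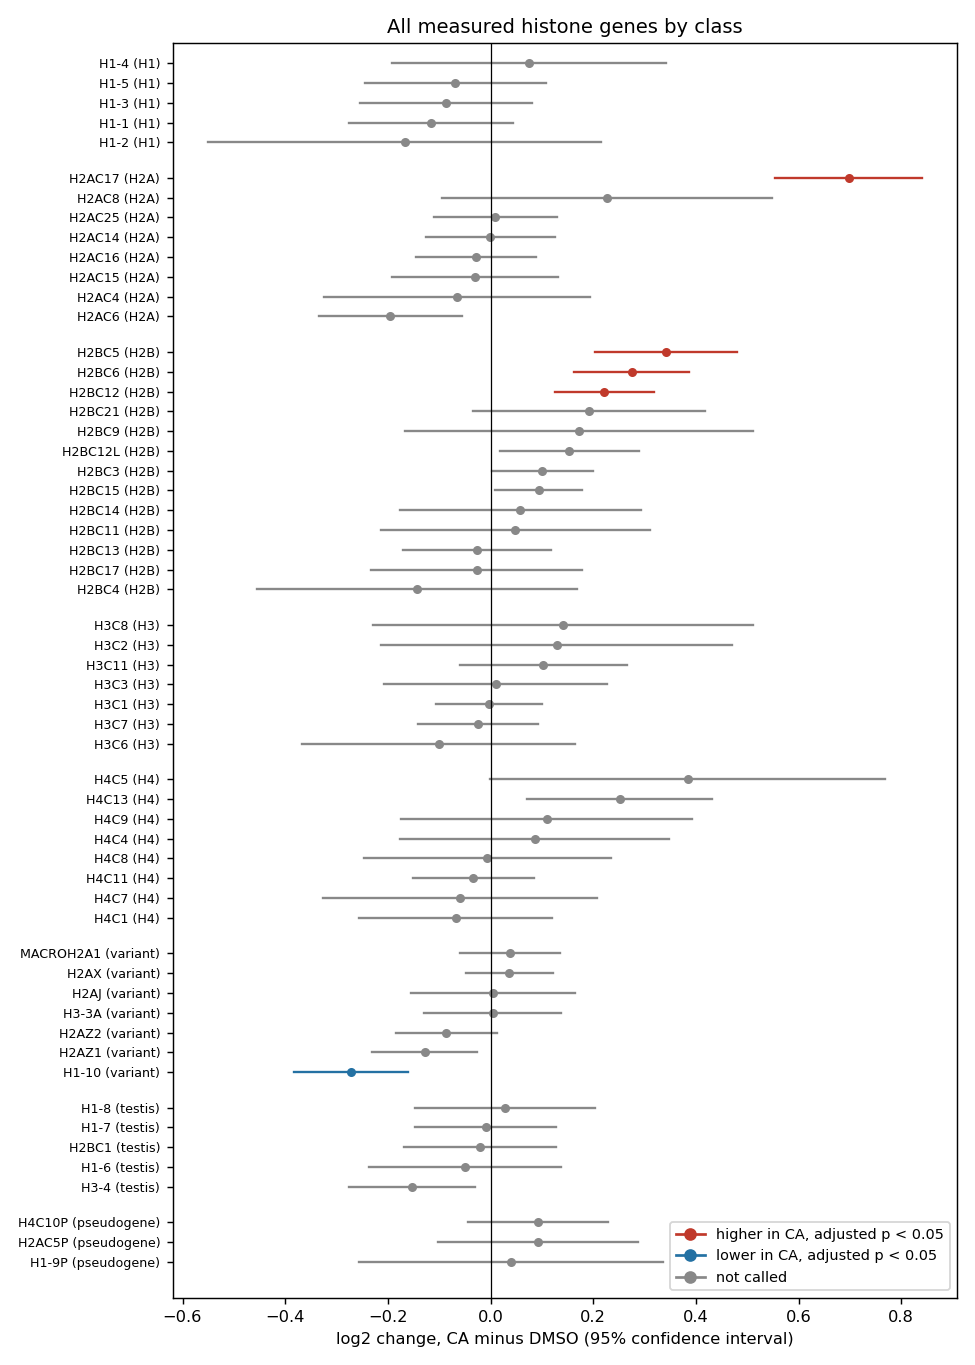
Log2 change (CA minus DMSO) with its 95% confidence interval for all 56 histone genes, grouped by class. The 4 called rises are H2AC17 and 3 H2B genes, the called fall is H1-10, and most intervals span 0.

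Along chromosome 6 the measured genes fall into 3 clusters of 26, 3 and 13 genes. In these, 2, 1 and 1 were called, all higher, where 6.64% of all genes were called higher. H2BC5 and H2BC6 are next to each other in the order of measured genes. Their outer neighbours were uncalled, H1-4 at 0.07 and H4C4 at 0.09. H2BC12 lies between H2BC11 (0.05) and H4C9 (0.11), both uncalled. H2AC17 lies between H4C13 (0.25) and H2BC17 (-0.03). The medians of the 3 clusters were -0.00, 0.11 and -0.00. All 3 genes of the middle cluster were on the side of CA, and the other clusters held genes on both sides. Of the 41 replication-dependent genes, 5 have a RefSeq gene model that spans over 1000 bases. Among these, 2 rose, H2BC5 (13229 bases) and H2BC12 (8566 bases), where 6.64% of all genes rose. The other 3, H2BC4, H2BC21 and H3C6, were uncalled. All but H3C6 are H2B genes, already counted in that class, and a link between span and change was not tested.

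**Figure D3:**
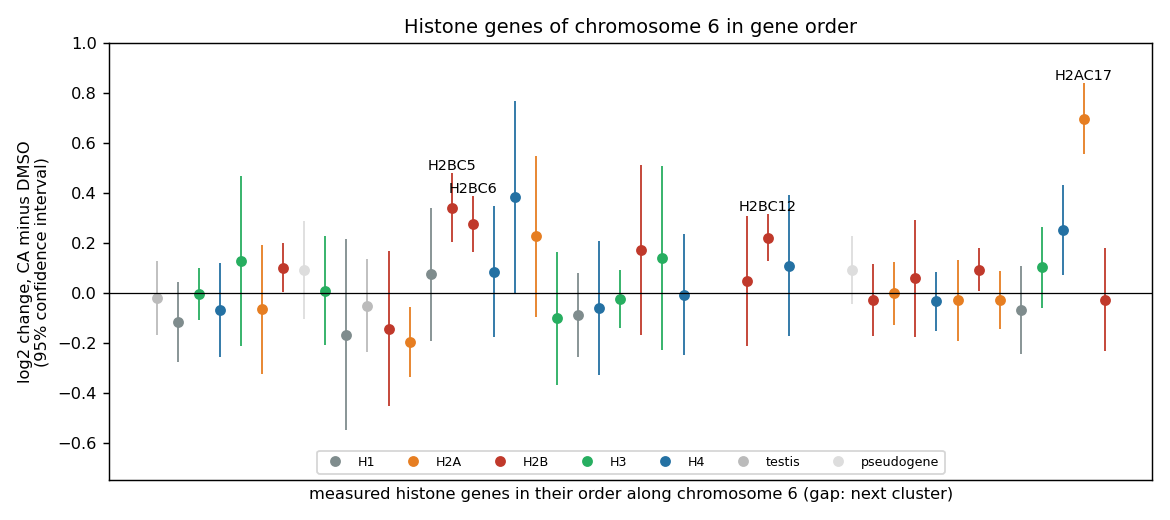
Log2 change (CA minus DMSO, 95% confidence interval) of the 42 measured histone genes of chromosome 6 in gene order, coloured by class, with gaps between the 3 clusters. The called genes H2BC5, H2BC6, H2BC12 and H2AC17 are named, with H2BC5 (0.34) and H2BC6 (0.28) side by side.

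Of the 7 variant genes measured, H1-10 alone was called on the probe set that stood for the gene. The H2A.Z genes encode a variant found at promoters and enhancers. H2AZ1 was at 13.69, 13.69 and 13.66 in CA, against 13.77, 13.88 and 13.78 in DMSO. All CA samples were lower, by 0.13 (SE 0.04, limma adjusted p = 0.117), which did not pass the test, and its second probe set was at -0.11 without overlap. With an intensity trend and robust moderation in limma, H2AZ1 was called lower (adjusted p = 0.00169). It was uncalled at a mean log2 of at least 5 (limma adjusted p = 0.0593) and with the replicate block (0.177). Nor was it called with any 1 array left out (0.148 to 0.249).

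H2AZ2 was at 11.60, 11.63 and 11.62 in CA, against 11.76, 11.66 and 11.68 in DMSO (-0.09, SE 0.04, limma adjusted p = 0.261). Its other 3 probe sets, which were not chosen because their intensity was lower, were all called lower in the test per probe set. The first was at 11.21, 11.26 and 11.28 in CA, against 11.46, 11.48 and 11.53 in DMSO (-0.24, SE 0.05, adjusted p = 0.0356). The second was at 9.04, 9.08 and 9.13 in CA, against 9.34, 9.35 and 9.42 in DMSO (-0.28, SE 0.05, adjusted p = 0.0241). The third was at 8.41, 8.52 and 8.44 in CA, against 8.74, 8.71 and 8.68 in DMSO (-0.25, SE 0.05, adjusted p = 0.0405). The CA samples lay below the DMSO samples on all 4 probe sets, and 2.01% of all probe sets were called lower. On the mean of its 4 probe sets H2AZ2 fell by 0.22 (limma adjusted p = 0.0137). Centring each array on the median level of 11 reference genes moved the median of all genes by 0.153, and every gene with it. That median is the value of YWHAZ, itself at -0.15. The chosen probe sets were then at 0.02 for H2AZ1 and 0.07 for H2AZ2, with the sign turned. The other 3 H2AZ2 probe sets stayed below 0, at -0.13 to -0.09, and so did the mean of the 4 (-0.06), with none of these called (limma adjusted p of 0.252 to 0.479). This combination was chosen after seeing the data. H1-10 stayed lower under that centring but was uncalled (-0.12, limma adjusted p = 0.280). A centring on the reference genes' median deviation, chosen after seeing the data, gave H1-10 -0.28 (limma adjusted p = 0.0116) and H2AZ1 -0.14 (0.105). A second quantile normalization gave H1-10 -0.28 (limma adjusted p = 0.0134) and H2AZ1 -0.12 (0.140).

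The remaining variants differed by less. H2AX, which is phosphorylated at DNA breaks, was at 9.74, 9.72 and 9.69 in CA, against 9.69, 9.69 and 9.66 in DMSO. The groups did not overlap, and the difference did not pass the test (0.04, 95% confidence interval -0.05 to 0.12, limma adjusted p = 0.593). MACROH2A1, a large variant enriched in repressed chromatin, was at 13.14, 13.11 and 13.06 in CA, against 13.08, 13.03 and 13.09 in DMSO, with overlap (0.04, -0.06 to 0.14). Its 7 probe sets ran from -0.15 to 0.08, with none called. H2AJ, a variant known to accumulate in senescent cells, was at 8.23, 8.44 and 8.27 in CA and at 8.34, 8.35 and 8.24 in DMSO (0.01, -0.15 to 0.16). H3-3A, which encodes the replication-independent H3.3, was at 7.42, 7.48 and 7.49 in CA and at 7.42, 7.57 and 7.40 in DMSO (0.00, -0.13 to 0.14).

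A further 28 probe sets are annotated to several histone genes and named no single gene, and 2 of these were called, both higher, where 5.01% of all probe sets were called and 3% were called higher. One is annotated to H2AC18 and H2AC19, which encode the same H2A protein, and was at 7.62, 7.76 and 7.77 in CA, against 7.16, 7.11 and 7.13 in DMSO. The separation is wide, at 0.58 (SE 0.06, 1.49-fold, limma adjusted p = 0.00236), although the other 2 probe sets of this pair were at 0.24 (adjusted p = 0.146) and 0.09 (adjusted p = 0.510). The other called one is annotated to H3C4 and H2AC7 and was at 5.77, 5.56 and 5.66 in CA, against 5.22, 5.22 and 5.32 in DMSO (0.41, SE 0.07, limma adjusted p = 0.0197). The 8 probe sets that list both H3.3 genes, H3-3A and H3-3B, ran from -0.16 to 0.03, and the 5 annotated to 14 H4 genes from -0.09 to 0.26, with none called. One H4 probe set was at 13.77, 13.73 and 13.73 in CA and at 13.77, 13.75 and 13.76 in DMSO (-0.01, 95% confidence interval -0.12 to 0.09).

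**Figure D4:**
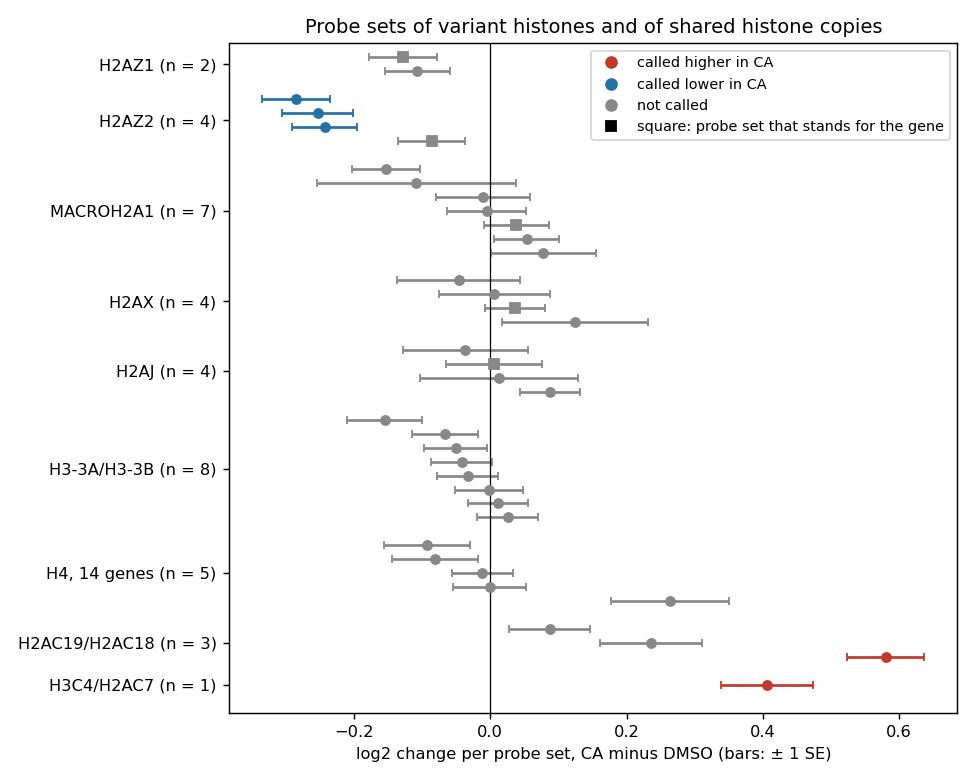
Log2 change per probe set (CA minus DMSO, bars ± 1 SE) for 5 variant genes and for probe sets shared by histone copies. Of the 4 H2AZ2 probe sets, 3 lie between -0.28 and -0.24, left of the square that stands for the gene, and a single H2AC18 and H2AC19 probe set lies at 0.58. Centring arrays on the median level of the reference genes moved the median of all genes by 0.153. The H2AZ2 square then turns positive (0.07) and the other 3 stay negative.

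The machinery that makes and ends histone mRNAs was given by a list of 22 genes, of which 21 were measured, 3 rose and 1 fell (median 0.02). Of all genes, 6.64% rose and 4.49% fell. CPSF3, the endonuclease that cuts histone pre-mRNA, was at 11.26 ± 0.01 in CA and 11.11 ± 0.02 in DMSO (SD, n = 3; 0.15, limma adjusted p = 0.0414), and CSTF2, a cleavage factor, rose by 0.16. The cyclin E genes, whose products with CDK2 activate the histone coactivator NPAT, were called in opposite directions, CCNE1 at 0.27 and CCNE2 at -0.25. NPAT (0.02) and SLBP, which binds the stem-loop (0.03), were not called. Of 27 histone chaperone and assembly genes, 1 rose and 1 fell (7.41% called, median -0.04). NASP, a chaperone of H3, H4 and linker histones, rose by 0.14 (limma adjusted p = 0.0487), and ANP32E, which removes H2A.Z from chromatin, was at 12.46 ± 0.03 in CA and 12.67 ± 0.04 in DMSO (SD, n = 3; -0.21, limma adjusted p = 0.0186). Of 4 further histone genes measured, including the centromeric CENPA (0.01), none was called.

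Of 21 S phase genes, 5 rose and 1 fell (28.6% called, against 11.1% of all genes, median 0.04). The primase subunit PRIM1 rose by 0.23 (limma adjusted p = 0.0127) and UHRF1, which maintains DNA methylation at replication forks, by 0.16. Of 20 G2/M genes, 0 rose and 4 fell (20%, against 4.49% of all genes that fell, median -0.08), and 18 were on the side of DMSO. The groups did not overlap in 14 with CA lower and in 2 with CA higher. Over all genes these shares were 15.2% and 16.6%. The mitotic kinesin KIF20A was at -0.36 and CENPE, a kinetochore motor, at -0.26. The part of these cell-cycle genes in the histone changes was not tested. With any 1 array left out, at most 1 of the S phase and G2/M genes was called higher and 2 were called lower, and 1 of the machinery and chaperone genes was called higher. Those fits called 1173 to 1331 of all genes, against 2202 with all 6 arrays. Centred on the median level of the reference genes, 10 of the S phase and G2/M genes were called higher and 0 lower. Over all genes that centring called 4110 higher and 189 lower.

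**Figure D5:**
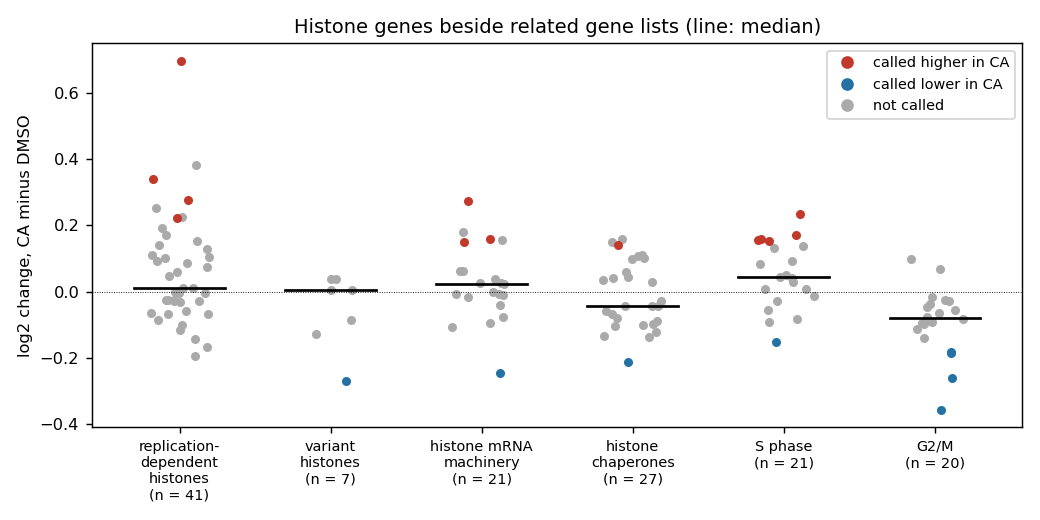
Log2 change (CA minus DMSO) of each measured gene in 6 groups, with called genes coloured and a line at the median. Replication-dependent histones span -0.20 to 0.70 around a median of 0.01, and G2/M genes lie mostly below 0 (median -0.08).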

How the data were processed

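RNA of 3 CA and 3 DMSO samples was measured on 1 array each. Per the submitters' processing notes, the authors obtained log2 intensities with RMA and affy. The sources used here give no versions and do not say which arrays shared a normalization. Per the labels' protocols RNA came from either of 2 kits, and which sample had which is not stated, so the kit was not examined. RMA compresses fold changes, and there is no sequencing depth.

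Of 54675 probe sets, 62 were controls. The platform annotation gave 41091 a single symbol (99.9% matched to RefSeq of GRCh38.p14 by Entrez number), 1801 several and 11721 none. A gene was represented by its probe set of highest mean log2 over the 6 arrays. H1-10-AS1, an antisense RNA, was not counted as a histone gene, and pseudogenes with a histone symbol were. The contrast CA minus DMSO was fitted in R 4.3.3 with lmFit and eBayes of limma 3.58.1, 2-sided, with Benjamini-Hochberg adjustment over 19775 genes, or over 54613 probe sets for values per probe set. Fits were tested on simulated data. Nothing says that the wells were separate experiments, so the spread behind each p-value is that between these wells and may be technical.

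The histone genes and the lists were chosen with earlier results of these data known. The rule for named genes gave full values to called and variant histone genes. It added the 3 uncalled replication-dependent genes of highest intensity, up to 4 called genes of each other list, and SLBP, NPAT and CENPA. The values per array of H2BC9, H2AC6, H2AC8, H4C13 and H4C5 go beyond that rule. These uncalled genes, and H2BC15, H2BC3 and H2BC4, were picked with their values known. Promoters came from RefSeq for 50 of the 56 genes. Alternatives were another choice of probe set, no _x_at or _s_at probe sets, a mean log2 of at least 5, other scalings, thresholds and moderation, weighting of arrays, blocking on replicate number, and fits without each array in turn.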

Additional observations from a re-analysis of the deposited data

How the results depend on the processing

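Against 4 histone genes called higher and 1 lower, 2202 calls in all, 4 machinery and chaperone genes higher and 2 lower, and 5 cell-cycle genes (S phase and G2/M) higher and 5 lower, most settings moved the counts. With 1 array left out the ranges were 1 to 5, 0 to 1, 1173 to 1331, 1 to 1, 0 to 2, 0 to 1 and 2 to 2 in that order. Arrays centred on the median level of the reference genes gave 12 and 0, 4299 (95.6% higher, against 59.7%), 12 and 0, and 10 and 0. That median is the value of 1 gene, YWHAZ, which was itself at 12.55 in CA and 12.70 in DMSO (-0.15, uncalled). The centring took the YWHAZ change from every gene and so moved the median of all genes by 0.153. H1-10 was then at -0.12 (adjusted p = 0.280). A centring on the reference genes' median deviation, chosen after seeing the data, gave 4 and 1 histone genes and 3 cell-cycle genes higher. Intensity trend and robust moderation gave 3 histone genes lower, H2AZ1 among them, 3814 in all, 7 machinery and chaperone genes lower, and 8 and 10 cell-cycle genes. A mean log2 of at least 5 gave 2 histone genes lower, the added one being H2AC6. The mean of all probe sets gave 2 lower and 1 machinery or chaperone gene higher. The probe set of largest variance gave 2 lower, 1411 in all, 1 machinery or chaperone gene higher, and 1 and 3 cell-cycle genes. Without _x_at and _s_at probe sets 43 of the 56 histone genes were measured, and 2 were called higher (H2AC17 and H2BC12), with 1336 in all, 1 machinery or chaperone gene higher and 1 cell-cycle gene higher. H2BC5, H2BC6 and H1-10 have only _x_at or _s_at probe sets, and H2AZ2 was the gene called lower (-0.24). Per probe set 2 were lower, H1-10 and H2AZ2. At adjusted p under 0.01, 1 was higher and 0 lower, and under 0.1, 2 were lower. Apart from the step set by YWHAZ, the cause of these shifts was not tested. Some settings also leave fewer arrays or genes in the fit. The replicate block gave 1 and 0 histone genes, 1118 in all, 1 and 0 machinery and chaperone genes, and 0 and 2 cell-cycle genes. The labels do not say whether same-numbered arrays share more than a number. Their deviations correlated at 0.0225, 0.0299 and 0.0245, and CA replicate 1 correlated best with DMSO replicate 3. With 3 arrays per group these values cannot decide on a pairing. H2AC17 was called in each setting where it was measured.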
